A study of Mus musculus with 18 samples.

Results

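The genes described here are those of autophagy and of the lysosome, taken by their symbols as every gene starting with Atg and a digit, Atp6v, Lamp, Gabarap, Map1lc3, Wipi or Cts and 1 letter, together with Sqstm1 and Tfeb. Of 68 such genes with a named probe, 53 had a probe detected at p under 0.05 on at least 4 of 18 arrays, out of 10605 genes in all that passed this filter. They comprised 16 ATG proteins, 5 members of the ATG8 family, 2 WIPI proteins, Sqstm1 and Tfeb, 6 subunits of the V0 part and 10 of the V1 part of the vacuolar ATPase (V-ATPase), 2 LAMP proteins and 10 cathepsins. The filter on detection left out 15 genes, namely Atg4a, Atp6v0a4, Atp6v0d2, Atp6v1e2, Atp6v1g3, Ctsg, Ctsj, Ctsk, Ctsm, Ctso, Ctsq, Ctss, Ctsw, Lamp3 and Lamp5. Ctsk, detected on 3 arrays, lay just outside it, and Ctsr and Tfeb, detected on 4 arrays each, lay just inside it. Detection on 4 arrays can be met by the arrays of a single dose, so a count over the 53 genes is not a count over all genes of these families.

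RNA came from AML12, an immortalized mouse hepatocyte line obtained from ATCC, seeded at 350000 cells per well, left overnight and kept for 24 h in complete DMEM with 10% FBS. To this medium was added either PBS, the control (n = 5), or octanoate, a medium-chain fatty acid, at 1 mM (n = 4), 2 mM (n = 5) or 5 mM (n = 4). The series title names lipids as the carbon source in question for acetylating histones. All groups shared the serum and the medium, so each comparison is of octanoate added to 1 cell line in medium with serum.

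In autophagy a flat membrane closes around part of the cytoplasm and the resulting autophagosome fuses with a lysosome, where its contents are digested. The ULK kinase complex starts the process, ATG9 vesicles and the lipid transfer proteins ATG2 supply the membrane, WIPI proteins read the phosphoinositide mark on it, and a pair of ubiquitin-like conjugation reactions attach the ATG8 proteins (LC3 and GABARAP) to it. SQSTM1, also called p62, links ubiquitinated cargo to LC3. The V-ATPase pumps protons into the lysosome, LAMP proteins coat its membrane, and cathepsins are its proteases. TFEB is a transcription factor that binds E-box-like elements in the promoters of many of these genes. In hepatocytes autophagy is known for supplying amino acids in fasting and for delivering lipid droplets to lysosomes. The arrays measured RNA, not protein, enzyme activity or the turnover of autophagosomes.

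Levels are log2 intensities after background correction and quantile normalization, and a difference of 1 on this scale is a change by a factor of 2. A gene is represented by the brightest of its detected probes, and since probes differ in their response, levels are compared between arrays and not between genes. Differences are given with the standard error (SE) of a linear model fitted to all 18 arrays with limma, and a gene was called higher or lower at a Benjamini-Hochberg adjusted p under 0.05 over 20536 probes. Between 17446 and 19842 probes were detected on an array, with the 5 mM arrays at 19279 ± 551 (SD, n = 4) against 17918 ± 391 (n = 5) with PBS, and the number of arrays limits the precision. The labels do not say whether replicates came from separate cultures, so p-values reflect only the spread among these samples, possibly of technical origin. Each array was 1 of 6 sections of 3 BeadChips. The 5 PBS arrays sat beside 1 mM replicate 1 on BeadChip 1. The remaining 1 mM arrays were run with 2 mM replicates 1 to 3 on BeadChip 2, and 2 mM replicates 4 and 5 shared BeadChip 3 with every 5 mM array. PBS and 5 mM arrays therefore shared no BeadChip, and a value with BeadChip as a term of the model, called the BeadChip value here, links them through the 1 mM and 2 mM arrays, with a single array, 1 mM replicate 1, tying BeadChip 1 to the rest. For 1 mM against PBS the BeadChip value rests on that array alone on the side of the dose.

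Of 11 hepatocyte markers 9 were detected, and albumin (Alb) and Fgb were not. Their summed level ran from 29137 to 31901 intensity units on PBS arrays and from 42589 to 47768 on 5 mM arrays, with transthyretin (Ttr) higher by 4.22 ± 0.10 (adjusted p = 4.72e-17) at 5 mM. Of these 9 markers 7 were called higher and 2 lower at 5 mM, beside 31.9% and 26.7% of all genes. Of 8 macrophage markers 3 were detected, the defining genes Ptprc, Adgre1, Lyz2, Clec4f and Itgam were not, and the sum ran from 2357 to 3027 units with PBS and from 1428 to 1606 at 5 mM, in which Cd14 changed by -0.87 ± 0.08 (adjusted p = 1.62e-08). The other detected macrophage markers read 0.16 and 0.33 at 5 mM, and 1 of them was called higher. Biliary markers (4 of 6 detected) summed to 4999 to 5288 units with PBS and 5397 to 6179 at 5 mM. Among these 4, 1 was called higher and 2 lower, with differences from -1.08 to 0.36. Stellate markers (3 of 7) summed to 74.4 to 94.4 units with PBS and 93.9 to 127 at 5 mM. Endothelial markers (2 of 6) summed to 57.6 to 74.4 units with PBS and 48.6 to 51.6 at 5 mM. The part of these shifts in the results below was not tested. All samples were of 1 cell line, so the sums are levels of marker RNA and not counts of cells of a type. Fewer cells expressing a marker cannot be told apart from less of its RNA per cell.

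At 5 mM octanoate the autophagy and lysosome genes were called higher more often than lower, with 24 of 53 higher and 9 lower. Among all 10605 genes 58.7% were called, 31.9% higher and 26.7% lower. The largest rises were those of the lysosomal proteases Ctsf and Ctsh, the ATG8 gene Gabarapl1 and the vesicle protein gene Atg9b, and the largest falls were those of the protease Ctsc, the proton pump subunit Atp6v1g2 and the ATG4 protease gene Atg4d. The median difference was 0.14 log2 units, beside 0.01 over all genes. With BeadChip as a term 16 were called higher and 5 lower, where 16.1% and 12% of all genes were. All 5 mM arrays lay above all PBS arrays for 23 of the 53 genes and below them for 7, beside 28.2% and 23.2% of all genes. When arrays were scaled to the median of all probes instead of quantile normalization, which moved the median of all genes by 0.11, 24 were called higher and 3 lower (Ctsc, Atp6v1g2 and Atg4d). The 6 that were not called with that scaling were Atg3 at -0.36, Atg2b at -0.23, Sqstm1 at -0.23, Ctse at -0.13, Atg9a at -0.11 and Atg101 at -0.11. The share of all genes called with that scaling is not given here. In the log2 table processed by the authors, sizes of several dimmer probes were smaller, such as 1.05 for Ctsf, 0.82 for Atg9b and -0.22 for Ctsc at 5 mM, with the calls unchanged for these 3 genes.

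Calls increased in number with dose. At 1 mM 6 of the 53 genes were called higher and 0 lower, with 11.1% and 8.49% of all genes so called (19.6% in either direction). At an unadjusted p under 0.05 4 were lower. Scaled to the median of all probes, which moved the median of all genes by -0.12, 2 were called higher at 1 mM (Ctsf and Ctsh), while Gabarapl1 was 0.23 (adjusted p = 0.268), Atg10 0.22 (adjusted p = 0.297) and Atp6v0e 0.21 (adjusted p = 0.323). At 2 mM the same scaling gave 6 higher, and the calls for Atg12 (0.33), Wipi1 (0.30) and Sqstm1 (-0.29) were lost. For neither dose is the share of all genes called with that scaling given here. In quantile normalized values the 6 genes called at 1 mM were the ones whose 1 mM arrays all lay above PBS, and 0 had all arrays below it, beside 10.2% and 8.15% of all genes. With BeadChip as a term 5 were higher and 0 lower, beside 4.68% and 2.81%. At 2 mM 13 were called higher and 9 lower, beside 22.1% and 18.7% of all genes (40.8% in either direction). Arrays at 2 mM lay wholly above PBS for 12 genes and wholly below for 6, beside 16.9% and 13.2%. The BeadChip term gave 6 higher and 4 lower, beside 7.9% and 4.49%. Ctsf, Ctsh, Gabarapl1, Atp6v0e, Atg10 and Gabarap were called higher at all 3 doses, which 9.83% of all genes were, and 0 of the 53 were called lower at all 3, where 6.83% of all genes were. No gene was called higher at a dose and lower at another, 16 were called at no dose, and group means rose in the order PBS, 1, 2 and 5 mM for 18 genes and fell in that order for 6. The shares of all genes with these patterns are not given here, so these counts do not set the 53 apart from other genes. The 3 comparisons with PBS share the PBS arrays, so their values are set side by side.

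**Figure D1:**
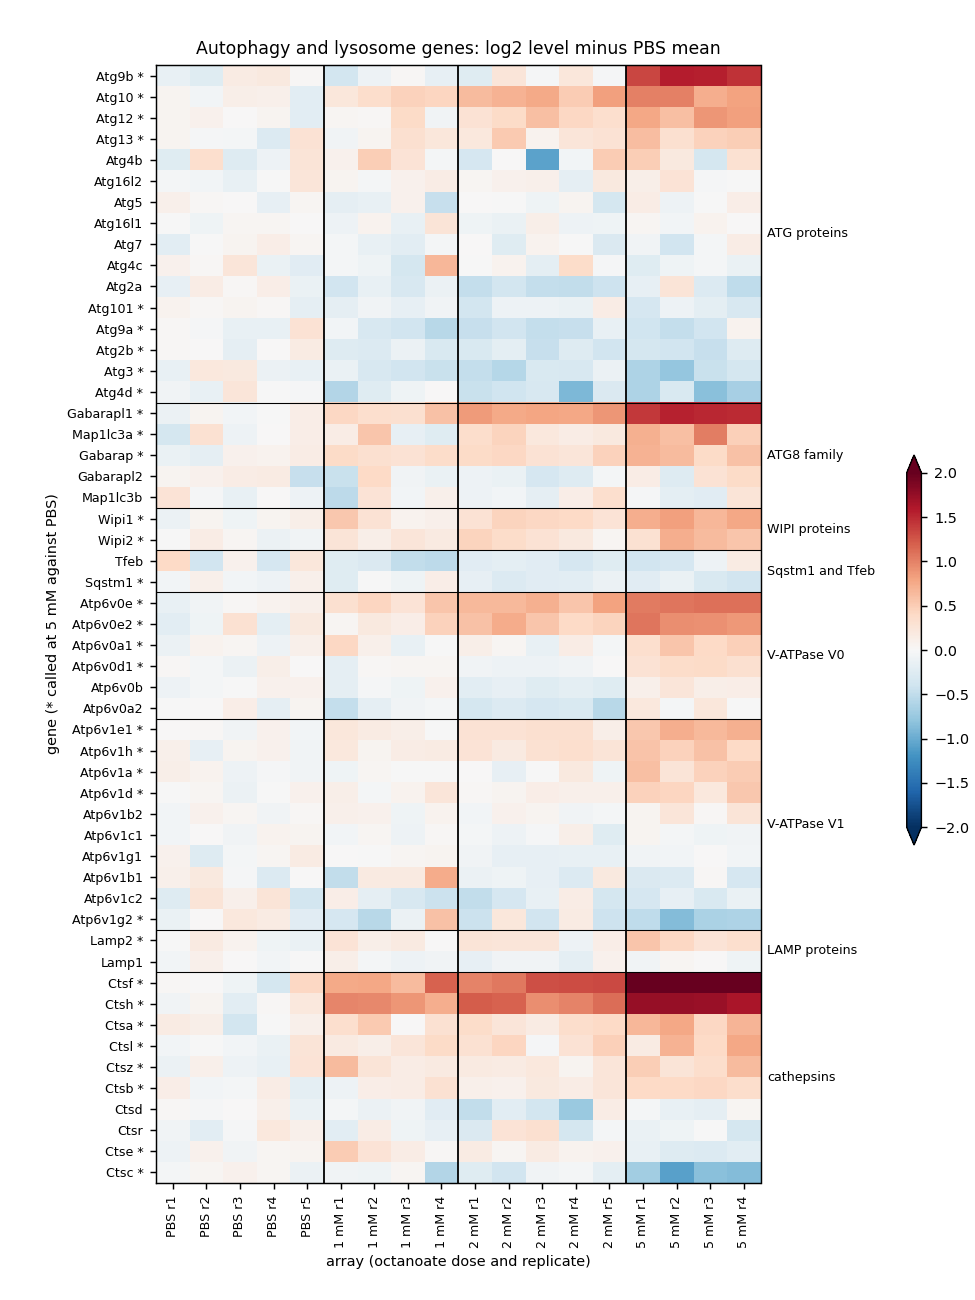
Level of each of the 53 genes (rows, grouped by role, an asterisk for a call at 5 mM against PBS) on each of the 18 arrays (columns), as log2 level minus the mean of the 5 PBS arrays; colours saturate at the ends of the scale. Ctsf, Ctsh, Gabarapl1 and Atp6v0e darken through 1, 2 and 5 mM, while Atg9b and Ctsc depart from PBS in the 5 mM columns.

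The promoters of these genes were read for the E-box that TFEB and related factors bind, a sequence known from the promoters of many lysosomal genes. RefSeq promoter windows (mouse build GRCm38.p6, 250 bases before to 50 after the start of the gene) matched 42 of the 53 genes. CACGTG, which reads the same on both strands, occurred in 12 of 42 (28.6%), beside 8.09% of 27025 genes with a window. The 42 had passed the detection filter, whereas the 27025 were taken whether detected here or not. Shares of the 2 sets are therefore not of like genes, here and for the longer motifs. The longer TCACGTGA, which contains it, occurred in 6 of 42 (14.3%) beside 1.12% of all genes, and the palindromic CLEAR element, a 10-base motif that contains both, in 0 of 42 beside 0.37%. CACGTG was present in 6 of the 19 genes with a window that were higher at 5 mM, in 1 of the 8 that were lower and in 5 of the 15 that were not called. These are matches of letters, which show no binding. The windows below belong to genes of different response, with Ctsf, Atp6v0e and Ctsa higher at 5 mM, Lamp1 and Ctsd not called and Atg3 lower, and capitals mark CACGTG.
Ctsf (chr19:4854915-4855214, plus strand): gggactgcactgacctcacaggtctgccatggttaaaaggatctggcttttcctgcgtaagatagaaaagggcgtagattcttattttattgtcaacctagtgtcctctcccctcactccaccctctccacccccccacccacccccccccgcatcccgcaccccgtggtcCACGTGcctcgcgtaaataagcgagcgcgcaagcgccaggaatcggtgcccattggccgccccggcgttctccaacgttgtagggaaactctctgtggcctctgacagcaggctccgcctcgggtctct
Atp6v0e (chr17:26676146-26676445, plus strand): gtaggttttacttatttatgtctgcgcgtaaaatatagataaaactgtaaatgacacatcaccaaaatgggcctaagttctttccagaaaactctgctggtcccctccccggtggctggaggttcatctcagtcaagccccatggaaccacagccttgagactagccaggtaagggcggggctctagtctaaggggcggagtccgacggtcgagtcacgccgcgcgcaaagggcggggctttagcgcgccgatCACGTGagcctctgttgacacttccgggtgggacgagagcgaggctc
Ctsa (chr2:164833523-164833822, plus strand): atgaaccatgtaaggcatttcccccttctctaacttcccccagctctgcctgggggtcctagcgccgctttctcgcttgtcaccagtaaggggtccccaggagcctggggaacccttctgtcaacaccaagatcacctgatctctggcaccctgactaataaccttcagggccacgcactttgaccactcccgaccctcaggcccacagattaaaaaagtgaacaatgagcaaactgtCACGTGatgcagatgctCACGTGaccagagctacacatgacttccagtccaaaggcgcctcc
Lamp1 (chr8:13158911-13159210, plus strand): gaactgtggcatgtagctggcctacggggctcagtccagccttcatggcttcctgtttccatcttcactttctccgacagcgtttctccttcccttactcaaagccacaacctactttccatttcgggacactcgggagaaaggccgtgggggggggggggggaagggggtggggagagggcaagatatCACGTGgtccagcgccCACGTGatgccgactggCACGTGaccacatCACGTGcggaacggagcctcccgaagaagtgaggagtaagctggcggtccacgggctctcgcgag
Ctsd (chr7:142387778-142388077, minus strand): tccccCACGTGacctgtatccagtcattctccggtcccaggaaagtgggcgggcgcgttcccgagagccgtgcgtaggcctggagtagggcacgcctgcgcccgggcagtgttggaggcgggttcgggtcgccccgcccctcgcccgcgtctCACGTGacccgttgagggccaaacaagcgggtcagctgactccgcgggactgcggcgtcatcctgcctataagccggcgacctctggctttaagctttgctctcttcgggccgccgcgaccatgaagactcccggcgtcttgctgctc
Atg3 (chr16:45158579-45158878, plus strand): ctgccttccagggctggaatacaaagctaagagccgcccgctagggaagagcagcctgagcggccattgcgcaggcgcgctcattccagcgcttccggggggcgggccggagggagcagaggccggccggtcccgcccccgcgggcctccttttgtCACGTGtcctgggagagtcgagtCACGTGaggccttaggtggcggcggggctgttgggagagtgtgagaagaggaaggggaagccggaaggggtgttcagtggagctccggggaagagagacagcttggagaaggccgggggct
Counted from the start of the gene as 0, the first base of CACGTG lay at -79 in Ctsf, at 3 in Atp6v0e, and at -12 and 5 in Ctsa. Lamp1 held 4 copies, at -61, -45, -28 and -15, and it was the only one of the 42 with more than 2. Ctsd held copies at -245 and -98, and Atg3 at -94 and -71. The other members with a copy were Atp6v0d1, Atp6v1a and Ctsl, higher at 5 mM, and Atg5, Atg7 and Atp6v0b, not called there.

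Among the ATG proteins 4 of 16 rose at 5 mM (Atg9b, Atg10, Atg12 and Atg13) and 5 fell (Atg4d, Atg3, Atg2b, Atg9a and Atg101), with a median difference of -0.03 log2 units. These shares, 25% and 31.2%, were near the 31.9% and 26.7% of all genes. Of the ULK complex Atg13 rose and Atg101 fell, of the ATG9 pair Atg9b rose and Atg9a fell, and of the conjugating enzymes Atg10 rose and Atg3 fell. With BeadChip as a term 3 rose (Atg9b, Atg10 and Atg12) and 1 fell (Atg4d).

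Atg13 and Atg101 encode partner subunits that hold the ULK kinase in its starting complex. Atg13 rose by 0.47 ± 0.11 (SE, 1.39-fold, adjusted p = 0.00124) at 5 mM, from 7.45 ± 0.20 (SD, n = 5) to 7.92 ± 0.12 (n = 4), with a BeadChip value of 0.21 ± 0.27 (adjusted p = 0.632). Atg101 had levels of 10.08, 10.02, 10.06, 10.04 and 9.82 with PBS, 9.83, 9.94, 9.84 and 9.94 at 1 mM, 9.64, 9.91, 9.90, 9.87 and 10.16 at 2 mM, and 9.68, 9.91, 9.82 and 9.68 at 5 mM. Its PBS arrays lay at the top of the range except replicate 5, and 2 mM replicate 5 exceeded every PBS array. The difference at 5 mM was -0.24 ± 0.09 (SE, 1.18-fold lower, adjusted p = 0.0368), and the BeadChip value -0.51 ± 0.21 (adjusted p = 0.0951) was not called. The call for Atg101 was lost, with differences of -0.25 to -0.20, when PBS replicate 1, 2, 3 or 4 or 5 mM replicate 1, 3 or 4 was left out.

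Atg9a and Atg9b are transmembrane lipid scramblases carried on the vesicles that seed the autophagosome. Atg9b read 6.95, 6.86, 7.26, 7.29 and 7.12 with PBS, 6.73, 7.0, 7.11 and 6.94 at 1 mM, 6.85, 7.34, 7.07, 7.33 and 7.07 at 2 mM, and 8.43, 8.67, 8.65 and 8.54 at 5 mM. The PBS, 1 mM and 2 mM arrays overlapped throughout, and all 5 mM arrays stood more than 1 log2 unit above all of the rest. Its differences were -0.15 ± 0.11 at 1 mM and 0.04 ± 0.11 at 2 mM, neither called, and 1.48 ± 0.11 (SE, 2.78-fold, adjusted p = 9.81e-10) at 5 mM, with a BeadChip value of 1.08 ± 0.27 (adjusted p = 0.00637). Against 2 mM, on arrays that partly share a BeadChip, Atg9b was higher at 5 mM by 1.44 ± 0.11 (SE, 2.71-fold, adjusted p = 5.29e-09), and the BeadChip value of that step was 1.37 ± 0.14 (adjusted p = 1.35e-06). Atg9a gave 6.03, 5.99, 5.86, 5.86 and 6.30 with PBS, 5.95, 5.68, 5.62 and 5.45 at 1 mM, 5.55, 5.62, 5.53, 5.54 and 5.86 at 2 mM, and 5.60, 5.53, 5.63 and 6.08 at 5 mM. Most treated arrays were below most PBS arrays, but 1 mM replicate 1, 2 mM replicate 5 and 5 mM replicate 4 reached into the PBS range. Its difference was -0.39 ± 0.12 (SE, 1.31-fold lower, adjusted p = 0.0134) at 2 mM and -0.30 ± 0.12 (SE, 1.23-fold lower, adjusted p = 0.0495) at 5 mM, and the BeadChip values were -0.07 and -0.06. The 5 mM call for Atg9a was lost, with differences of -0.30 to -0.22, without PBS replicate 1, 2 or 5, without 1 mM replicate 2 or 3, without 2 mM replicate 1, 2, 3 or 4, or without 5 mM replicate 1, 2 or 3.

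Atg2a and Atg2b move lipid from the endoplasmic reticulum into the growing membrane, and their probes did not give a single direction. Atg2b had levels of 8.79, 8.77, 8.58, 8.77 and 8.92 with PBS, 8.51, 8.49, 8.65 and 8.46 at 1 mM, 8.45, 8.57, 8.30, 8.51 and 8.38 at 2 mM, and 8.41, 8.39, 8.31 and 8.51 at 5 mM. All 2 mM and 5 mM arrays lay below all PBS arrays, while the 1 mM arrays overlapped them. The difference at 5 mM was -0.36 ± 0.08 (SE, 1.28-fold lower, adjusted p = 0.000792) with a BeadChip value of -0.39 ± 0.20 (adjusted p = 0.184). A second, dimmer probe of Atg2b was called in the opposite direction, at 0.45 (adjusted p = 0.000517), and the mean of the pair was 0.04. Atg2a fell at 2 mM, with a difference of -0.45 ± 0.11 (SE, 1.36-fold lower, adjusted p = 0.00362) and was not called at 5 mM (-0.17 ± 0.12), where the remaining probes of Atg2a read 0.63 and 0.68, so the direction of either gene depended on the probe.

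The conjugation of ATG12 to ATG5 and of ATG8 proteins to lipid uses ATG7 as the activating enzyme and ATG10 and ATG3, respectively, as the conjugating enzymes. Atg10 had levels of 7.02, 6.90, 7.08, 7.05 and 6.75 with PBS, 7.19, 7.30, 7.42 and 7.40 at 1 mM, 7.60, 7.66, 7.71, 7.46 and 7.78 at 2 mM, and 7.97, 7.97, 7.68 and 7.76 at 5 mM. Arrays at 1, 2 and 5 mM all lay above all PBS arrays, and those at 2 mM all lay above those at 1 mM. Its differences were 0.37 ± 0.09, 0.68 ± 0.09 and 0.89 ± 0.09 (SE, 1.85-fold, adjusted p = 8.07e-08) at 1, 2 and 5 mM, and the BeadChip values were 0.23, 0.51 and 0.74 ± 0.22 (adjusted p = 0.0228), called at 5 mM and not at the lower doses. Atg12, the ubiquitin-like protein itself, read 9.60, 9.64, 9.56, 9.60 and 9.34 with PBS, 9.59, 9.57, 9.93 and 9.47 at 1 mM, 9.84, 9.93, 10.16, 9.97 and 9.88 at 2 mM, and 10.32, 10.14, 10.42 and 10.37 at 5 mM. The 2 mM and 5 mM arrays were all above PBS and the 1 mM arrays were mixed with it. Atg12 was called higher at 2 mM (0.41 ± 0.09) and at 5 mM (0.76 ± 0.10 (SE, 1.7-fold, adjusted p = 1.46e-06)), with a BeadChip value of 0.74 ± 0.25 (adjusted p = 0.0351) at 5 mM. At 2 mM the BeadChip value of Atg12 was 0.35 (adjusted p = 0.306) and not called.

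Atg3, whose promoter with its pair of E-boxes is printed above, went the other way. Its levels were 7.41, 7.77, 7.75, 7.44 and 7.40 with PBS, 7.42, 7.24, 7.17 and 7.10 at 1 mM, 7.08, 6.98, 7.24, 7.23 and 7.43 at 2 mM, and 6.93, 6.79, 7.11 and 7.21 at 5 mM. All 5 mM arrays lay below all PBS arrays, and at 2 mM replicate 5 alone reached the PBS range. Atg3 fell, with differences of -0.36 ± 0.11 (SE, 1.28-fold lower, adjusted p = 0.0126) at 2 mM and -0.54 ± 0.11 (SE, 1.46-fold lower, adjusted p = 0.000426) at 5 mM, and the BeadChip value of -0.52 ± 0.26 (adjusted p = 0.158) at 5 mM was of nearly the same size with a wider error. At 2 mM the BeadChip value of Atg3 was -0.20 (adjusted p = 0.623) and not called. A second probe of Atg3, detected on 4 arrays, read 0.05 and was not called. The activating enzyme gene Atg7 (-0.09 ± 0.11), the ATG12 acceptor gene Atg5 (0.04 ± 0.10) and the scaffold genes Atg16l1 (0.02 ± 0.08) and Atg16l2 (0.09 ± 0.09) were not called at any dose.

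ATG4 proteases trim newly made ATG8 proteins and release them from membranes. Atg4d read 6.69, 6.62, 7.01, 6.76 and 6.75 with PBS, 6.18, 6.52, 6.68 and 6.78 at 1 mM, 6.31, 6.36, 6.45, 5.86 and 6.47 at 2 mM, and 6.15, 6.46, 5.92 and 6.09 at 5 mM. The 2 mM and 5 mM arrays were all below PBS, with 2 mM replicate 4 and 5 mM replicate 3 lowest, and 1 mM overlapped PBS. Atg4d fell, with differences of -0.47 ± 0.13 (SE, 1.39-fold lower, adjusted p = 0.00731) at 2 mM and -0.61 ± 0.14 (SE, 1.52-fold lower, adjusted p = 0.000931) at 5 mM, with BeadChip values of -0.86 ± 0.25 (adjusted p = 0.0367) and -0.87 ± 0.30 (adjusted p = 0.0423). The other 3 probes of Atg4d read -0.34, 0.09 and 0.05 at 5 mM and were not called, and the mean over its probes was -0.20, not called (adjusted p = 0.0661). Atg4b (0.16 ± 0.23) and Atg4c (-0.12 ± 0.15, detected on 7 arrays) were not called at any dose.

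Of the ATG8 family, the proteins that coat the autophagosome membrane and bind its cargo receptors, 3 of 5 rose at 5 mM and 0 fell, beside 31.9% and 26.7% of all genes. Gabarapl1 and Gabarap rose at every dose, Map1lc3a at 5 mM, and Map1lc3b, the LC3 form most often used as an autophagosome marker, and Gabarapl2 were not called. In the fit with BeadChip as a term 2 of the 5 were higher at 5 mM and 1, Map1lc3b, was lower, beside 16.1% and 12% of all genes. Gabarapl1 read 8.36, 8.54, 8.43, 8.48 and 8.62 with PBS, 8.90, 8.83, 8.80 and 9.07 at 1 mM, 9.33, 9.24, 9.28, 9.26 and 9.36 at 2 mM, and 9.89, 10.02, 9.99 and 9.98 at 5 mM. The 4 groups did not overlap at any point, each dose lying wholly above the dose below it. Gabarapl1 rose by 0.41 ± 0.07 (SE, 1.33-fold, adjusted p = 0.000793) at 1 mM, 0.81 ± 0.07 (SE, 1.75-fold, adjusted p = 3.51e-08) at 2 mM and 1.48 ± 0.07 (SE, 2.8-fold, adjusted p = 1.46e-12) at 5 mM. The BeadChip values were 0.42 ± 0.13 (adjusted p = 0.0587), 0.80 ± 0.16 (adjusted p = 0.00367) and 1.46 ± 0.19 (adjusted p = 1.97e-05), called at 2 and 5 mM. At 1 mM the call was also lost, at 0.23 (adjusted p = 0.268), with arrays scaled to the median of all probes.

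Gabarap had levels of 11.43, 11.38, 11.65, 11.64 and 11.71 with PBS, 11.95, 11.88, 11.85 and 11.93 at 1 mM, 11.95, 11.98, 11.86, 11.80 and 12.02 at 2 mM, and 12.26, 12.20, 11.94 and 12.14 at 5 mM. Every treated array lay above every PBS array, and the 3 doses overlapped in part. Its differences were 0.34 ± 0.09 (SE, 1.27-fold, adjusted p = 0.00932) at 1 mM, 0.36 ± 0.08 at 2 mM and 0.57 ± 0.09 (SE, 1.49-fold, adjusted p = 1.07e-05) at 5 mM, with BeadChip values of 0.39, 0.43 and 0.66, called at 5 mM. Map1lc3a read 6.23, 6.88, 6.48, 6.58 and 6.71 with PBS, 6.73, 7.12, 6.42 and 6.34 at 1 mM, 6.93, 7.03, 6.78, 6.72 and 6.76 at 2 mM, and 7.28, 7.17, 7.60 and 7.05 at 5 mM. Of the doses, 5 mM alone cleared the PBS range. It rose by 0.70 ± 0.15 (SE, 1.62-fold, adjusted p = 0.000557), its second probe by 0.64, and the BeadChip value was 0.97 ± 0.37 (adjusted p = 0.0687).

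Map1lc3b gave 10.18, 9.88, 9.76, 9.91 and 9.80 with PBS, 9.39, 10.18, 9.85 and 10.01 at 1 mM, 9.80, 9.85, 9.72, 10.03 and 10.25 at 2 mM, and 9.88, 9.71, 9.68 and 10.16 at 5 mM. All groups overlapped, and 1 mM replicate 1, the array that shares BeadChip 1 with PBS, was the lowest of the 18. Its difference at 5 mM was -0.05 ± 0.15 (adjusted p = 0.812), whereas the BeadChip value was -1.02 ± 0.27 (adjusted p = 0.009) at 5 mM and -0.74 ± 0.22 (adjusted p = 0.0429) at 2 mM, both of which rest on that array. Gabarapl2 read 5.96 ± 0.26 with PBS (SD, n = 5), 5.90 ± 0.35 at 1 mM (n = 4), 5.79 ± 0.12 at 2 mM (n = 5) and 6.10 ± 0.28 at 5 mM (n = 4) and was not called at any dose.

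Both WIPI genes rose at 2 and 5 mM. Wipi1 had levels of 8.19, 8.36, 8.23, 8.36 and 8.43 with PBS, 8.85, 8.61, 8.39 and 8.42 at 1 mM, 8.61, 8.75, 8.73, 8.71 and 8.59 at 2 mM, and 9.04, 9.14, 8.98 and 9.09 at 5 mM. The 2 mM and 5 mM arrays were all above PBS and the 5 mM arrays all above 2 mM, and 1 mM replicate 1 was the highest of its group. Wipi1 rose by 0.36 ± 0.09 (SE, 1.29-fold, adjusted p = 0.00233) at 2 mM and 0.75 ± 0.09 (SE, 1.68-fold, adjusted p = 6.66e-07) at 5 mM, with BeadChip values of 0.76 ± 0.16 (adjusted p = 0.00536) and 1.17 ± 0.19 (adjusted p = 0.000182). Wipi2, whose protein recruits ATG16L1, averaged 7.79 ± 0.10 with PBS (SD, n = 5), 7.99 ± 0.07 at 1 mM (n = 4), 8.06 ± 0.16 at 2 mM (n = 5) and 8.35 ± 0.18 at 5 mM (n = 4). It rose by 0.27 ± 0.09 (SE, 1.2-fold, adjusted p = 0.0237) at 2 mM and 0.56 ± 0.10 (SE, 1.47-fold, adjusted p = 4.99e-05) at 5 mM, with a BeadChip value of 0.90 ± 0.21 (adjusted p = 0.00476) at 5 mM. The 2 mM call for Wipi2 was lost, at 0.22 to 0.25, without PBS replicate 4 or 5 or 2 mM replicate 1 or 2. For each gene 1 further probe was called higher at 5 mM (1.02 for Wipi1 and 0.46 for Wipi2) and 1 was not called (0.27 and 0.15).

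**Figure D2:**
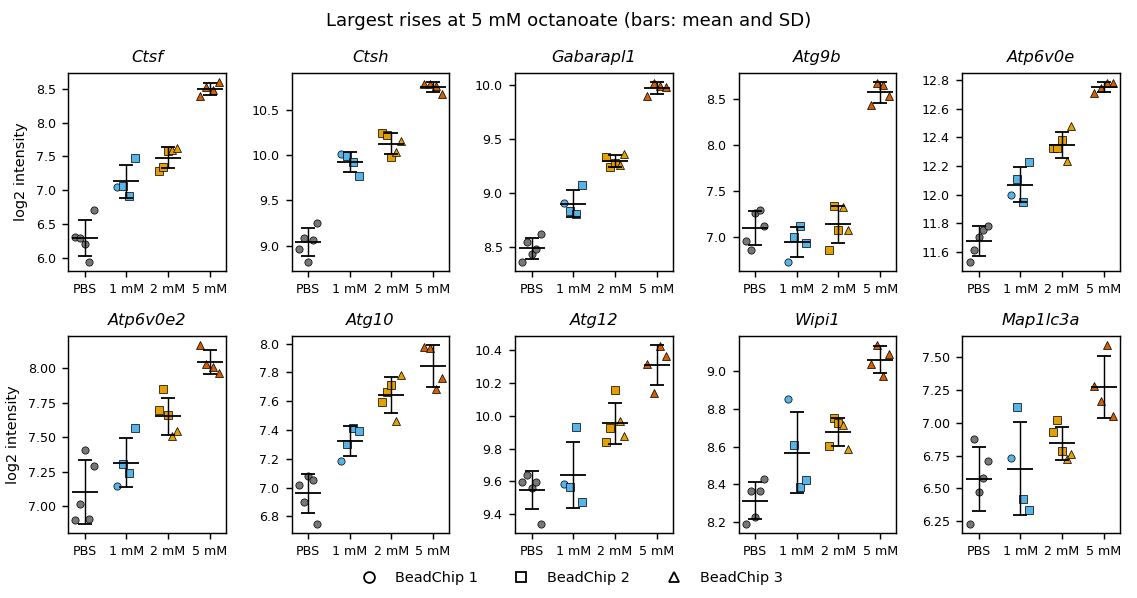
Log2 intensity on each array for the 10 genes with the largest rises at 5 mM, by octanoate dose (x axis), with marker shapes for the BeadChip and bars for the mean and SD of each group. Group means of Gabarapl1, Ctsf, Ctsh and Atp6v0e rise at each dose, and the 1 and 2 mM arrays of Ctsf and Ctsh overlap. Atg9b is level through 2 mM and higher at 5 mM by 1.48.

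The cargo receptor gene Sqstm1 fell slightly and the regulator gene Tfeb was near the detection limit. Sqstm1 read 11.58, 11.74, 11.58, 11.54 and 11.73 with PBS, 11.40, 11.63, 11.55 and 11.77 at 1 mM, 11.46, 11.36, 11.41, 11.42 and 11.51 at 2 mM, and 11.42, 11.50, 11.32 and 11.25 at 5 mM. All 2 mM and 5 mM arrays lay below all PBS arrays, and 1 mM overlapped both sides. It fell, with differences of -0.20 ± 0.08 (SE, 1.15-fold lower, adjusted p = 0.0482) at 2 mM and -0.26 ± 0.08 (SE, 1.2-fold lower, adjusted p = 0.0108) at 5 mM, and the BeadChip value at 5 mM was -0.57 ± 0.19 (adjusted p = 0.036). At 2 mM the BeadChip value of Sqstm1 was -0.47 (adjusted p = 0.0677) and not called. Without the BeadChip term the 2 mM adjusted p lay just under the threshold, and the call was lost, with differences of -0.21 to -0.18, without PBS replicate 1, 2, 3 or 5, without 1 mM replicate 2 or 3, without 2 mM replicate 1, 2, 3 or 4, or without 5 mM replicate 1 or 3. Tfeb read 5.20, 4.42, 4.89, 4.47 and 5.03 with PBS, 4.56, 4.51, 4.31 and 4.27 at 1 mM, 4.57, 4.61, 4.58, 4.47 and 4.55 at 2 mM, and 4.42, 4.47, 4.70 and 4.96 at 5 mM. Its probe was detected on 3 PBS arrays, on 0 arrays at 1 mM, on 0 at 2 mM and on 1 at 5 mM. At 1 and 2 mM it was not well above background on any array, the bound on a fold lay under 1, and no fold is given; at 5 mM the difference was -0.16 ± 0.14 (adjusted p = 0.354), and it was -0.33 and called lower (adjusted p = 0.0461) when arrays were scaled to the median of tested probes.

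The V0 part of the V-ATPase is the ring and channel in the lysosomal membrane, and its 6 subunit genes, each read from its brightest probe, rose between 2 and 5 mM. All 6 were called higher at 5 mM than at 2 mM, by 0.36 to 0.46, and all 6 remained called with BeadChip as a term. Among all genes 18.9% were called higher in that step and 14.3% with BeadChip as a term. Against PBS 4 of 6 were called higher at 5 mM, beside 31.9% of all genes, while Atp6v0a2 and Atp6v0b, which were lower than PBS at 2 mM, were not called. At 2 mM 2 of the 6 were called lower, and 1 with BeadChip as a term, beside 18.7% and 4.49% of all genes. Atp6v0e, which encodes the small e subunit, read 11.53, 11.61, 11.71, 11.75 and 11.78 with PBS, 12.00, 12.11, 11.95 and 12.23 at 1 mM, 12.32, 12.32, 12.38, 12.24 and 12.48 at 2 mM, and 12.71, 12.75, 12.78 and 12.78 at 5 mM. Each group lay wholly above the group of the next lower dose. Atp6v0e rose by 0.39 ± 0.08 (SE, 1.31-fold, adjusted p = 0.00168) at 1 mM, 0.67 ± 0.07 (SE, 1.59-fold, adjusted p = 6.97e-07) at 2 mM and 1.08 ± 0.08 (SE, 2.11-fold, adjusted p = 3.94e-10) at 5 mM. The BeadChip values were 0.32 ± 0.13 (adjusted p = 0.158), 0.57 ± 0.16 (adjusted p = 0.0332) and 0.96 ± 0.19 (adjusted p = 0.00139).

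Atp6v0e2, the second form of that subunit, had levels of 6.90, 7.01, 7.41, 6.91 and 7.29 with PBS, 7.15, 7.30, 7.24 and 7.57 at 1 mM, 7.69, 7.85, 7.66, 7.51 and 7.55 at 2 mM, and 8.17, 8.03, 8.01 and 7.97 at 5 mM. Arrays at 2 and 5 mM were all above PBS, and those at 5 mM all above 2 mM. The rise was 0.55 ± 0.11 (SE, 1.46-fold, adjusted p = 0.000431) at 2 mM and 0.94 ± 0.11 (SE, 1.92-fold, adjusted p = 5.67e-07) at 5 mM, with a BeadChip value of 0.93 ± 0.26 (adjusted p = 0.0146) at 5 mM. At 2 mM the BeadChip value of Atp6v0e2 was 0.41 (adjusted p = 0.263) and not called. Atp6v0a1, a form of the large a subunit through which protons pass, averaged 9.20 ± 0.10 with PBS (SD, n = 5), 9.29 ± 0.24 at 1 mM (n = 4), 9.22 ± 0.12 at 2 mM (n = 5) and 9.65 ± 0.09 at 5 mM (n = 4). It was called higher at 5 mM (0.44 ± 0.10 (SE, 1.36-fold, adjusted p = 0.000818), BeadChip value 0.83) and not at 1 or 2 mM. Atp6v0d1, the d subunit that joins V0 to V1, averaged 11.05 ± 0.09 with PBS (SD, n = 5), 11.04 ± 0.10 at 1 mM (n = 4), 10.98 ± 0.04 at 2 mM (n = 5) and 11.39 ± 0.05 at 5 mM (n = 4), with a rise of 0.34 ± 0.07 (SE, 1.26-fold, adjusted p = 0.000399) and a BeadChip value of 0.08 ± 0.16 (adjusted p = 0.785). Atp6v0a2 had a difference of -0.37 ± 0.09 (SE, 1.29-fold lower, adjusted p = 0.00412) for 2 mM against PBS and of 0.46 ± 0.10 (SE, 1.38-fold, adjusted p = 0.0012) for 5 mM against 2 mM, both called. The proteolipid gene Atp6v0b did likewise, with -0.21 ± 0.07 (SE, 1.16-fold lower, adjusted p = 0.0178) for 2 mM against PBS and 0.36 ± 0.07 (SE, 1.28-fold, adjusted p = 0.000618) for 5 mM against 2 mM. Neither differed from PBS past the threshold at 5 mM (0.10 ± 0.10 and 0.15 ± 0.07). A second, dimmer probe of Atp6v0a2 read 0.13 for 2 mM against PBS and 0.07 for 5 mM against 2 mM. The fall and the rise of Atp6v0a2 therefore depended on the probe.

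In the V1 part, the cytosolic motor that splits ATP, 4 of 10 genes rose at 5 mM, 1 fell and 5 were not called, with a median of 0.05, beside 31.9% of all genes higher and 26.7% lower. Those that rose were Atp6v1e1 (0.65 ± 0.07 (SE, 1.57-fold, adjusted p = 2.43e-07)) and Atp6v1d (0.42 ± 0.08 (SE, 1.33-fold, adjusted p = 0.000159)), of the stator and the central stalk, Atp6v1h (0.50 ± 0.07 (SE, 1.42-fold, adjusted p = 9.11e-06)), a regulatory subunit, and Atp6v1a (0.46 ± 0.09 (SE, 1.37-fold, adjusted p = 0.000135)), the catalytic subunit. Atp6v1e1 and Atp6v1h were also called higher at 2 mM (0.27 ± 0.07 and 0.27 ± 0.07) and retained the 5 mM call with BeadChip as a term (0.85 and 0.54). The same 4 genes were higher at 5 mM than at 2 mM, by 0.38, 0.33, 0.24 and 0.46 in the order just given. Atp6v1g2, a form of the G subunit known from neurons, read 5.97, 6.11, 6.31, 6.27 and 5.88 with PBS, 5.78, 5.55, 5.99 and 6.69 at 1 mM, 5.68, 6.33, 5.73, 6.27 and 5.69 at 2 mM, and 5.60, 5.24, 5.48 and 5.49 at 5 mM. The 5 mM arrays were all below PBS and below 2 mM, 1 mM replicate 2 lay within their range, and 1 mM replicate 4 was the highest of all. It fell, with a difference of -0.66 ± 0.19 (SE, 1.58-fold lower, adjusted p = 0.00537), with a BeadChip value of -1.03 ± 0.46 (adjusted p = 0.119).

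The V1 genes not called at 5 mM were Atp6v1b1 (-0.22 ± 0.17), Atp6v1b2 (0.14 ± 0.07), Atp6v1c1 (-0.04 ± 0.08), Atp6v1c2 (-0.24 ± 0.15) and Atp6v1g1 (-0.05 ± 0.08). Atp6v1b1, the B subunit of kidney and inner ear, was detected on 11 of 18 arrays and had a BeadChip value of -1.16 ± 0.32 (adjusted p = 0.0121) at 5 mM. A dimmer probe of Atp6v1c1 was called lower at 5 mM, at -0.28.

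LAMP1 and LAMP2 are the main glycoproteins of the lysosomal membrane, and LAMP2 also takes part in chaperone-mediated autophagy. Lamp2 read 12.77, 12.95, 12.84, 12.68 and 12.64 with PBS, 13.05, 12.89, 12.95 and 12.78 at 1 mM, 13.04, 13.01, 13.02, 12.68 and 12.91 at 2 mM, and 13.34, 13.18, 13.05 and 13.11 at 5 mM. The 5 mM arrays all lay above PBS and above 2 mM, and the 1 and 2 mM arrays overlapped PBS. Lamp2 rose by 0.39 ± 0.09 (SE, 1.31-fold, adjusted p = 0.00129) at 5 mM, with a BeadChip value of 0.81 ± 0.21 (adjusted p = 0.00803), and 4 of its 6 other probes were called higher too, by 0.31 to 0.62. Scaled to the median of tested probes it was 0.16 and was not called (adjusted p = 0.16). Lamp1, the gene with 4 E-boxes in its promoter window, gave 11.89, 12.05, 11.96, 11.89 and 11.94 with PBS, 12.07, 11.90, 11.84 and 11.87 at 1 mM, 11.78, 11.87, 11.87, 11.75 and 12.04 at 2 mM, and 11.88, 11.99, 11.95 and 11.87 at 5 mM. All groups overlapped. Its difference was -0.02 ± 0.08 (adjusted p = 0.823) at 5 mM, with a 95% interval from -0.18 to 0.14. Scaled to the median of tested probes Lamp1 was -0.21 and was called lower (adjusted p = 0.0255).

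Cathepsins gave the largest rise and the largest fall among the 53 genes, with 6 of 10 higher at 5 mM (Ctsf, Ctsh, Ctsa, Ctsl, Ctsz and Ctsb), 2 lower (Ctsc and Ctse) and a median of 0.41. Of all genes 31.9% were higher and 26.7% lower. In the fit with BeadChip as a term 3 cathepsins were higher and 1 lower, beside 16.1% and 12% of all genes, and the median was 0.24. Ctsf, a cysteine protease with a long propeptide, read 6.31, 6.29, 6.21, 5.94 and 6.71 with PBS, 7.05, 7.07, 6.92 and 7.48 at 1 mM, 7.28, 7.34, 7.57, 7.59 and 7.62 at 2 mM, and 8.39, 8.53, 8.48 and 8.60 at 5 mM. Every treated array exceeded every PBS array, and the 5 mM arrays all exceeded those at 2 mM, while 1 mM replicate 4 reached into the 2 mM range. Ctsf rose by 0.84 ± 0.13 (SE, 1.79-fold, adjusted p = 0.000192) at 1 mM, 1.19 ± 0.12 (SE, 2.28-fold, adjusted p = 3.32e-07) at 2 mM and 2.21 ± 0.13 (SE, 4.61-fold, adjusted p = 1.64e-11) at 5 mM. The BeadChip values were 0.76 ± 0.21 (adjusted p = 0.0429), 1.01 ± 0.27 (adjusted p = 0.0227) and 1.90 ± 0.32 (adjusted p = 0.000266), all called.

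Ctsh, a cysteine protease that trims residues from the amino end, had levels of 8.96, 9.09, 8.82, 9.06 and 9.25 with PBS, 10.02, 9.99, 9.92 and 9.77 at 1 mM, 10.24, 10.22, 9.97, 10.03 and 10.16 at 2 mM, and 10.79, 10.79, 10.76 and 10.68 at 5 mM. The treated arrays were all above PBS and the 5 mM arrays all above 2 mM. Ctsh rose by 0.89 ± 0.09 (SE, 1.85-fold, adjusted p = 1.28e-06), 1.09 ± 0.08 (SE, 2.12-fold, adjusted p = 5.66e-09) and 1.71 ± 0.09 (SE, 3.28-fold, adjusted p = 2.2e-12) at 1, 2 and 5 mM. The BeadChip values of 0.98 ± 0.15 (adjusted p = 0.000937), 1.23 ± 0.18 (adjusted p = 0.000453) and 1.89 ± 0.22 (adjusted p = 6.14e-06) were called as well, and a second probe of Ctsh rose by 1.51 at 5 mM. Of the 53 genes these proteases, Ctsf and Ctsh, were the ones called at 1 mM in both fits.

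Ctsc, which removes dipeptides and activates other proteases, went down at 5 mM. It read 6.46, 6.55, 6.58, 6.54 and 6.39 with PBS, 6.43, 6.41, 6.55 and 5.93 at 1 mM, 6.26, 6.11, 6.44, 6.46 and 6.31 at 2 mM, and 5.81, 5.41, 5.67 and 5.63 at 5 mM. At 5 mM every array was below PBS and below 2 mM, and PBS, 1 mM and 2 mM overlapped. Ctsc fell, with differences of -0.87 ± 0.11 (SE, 1.83-fold lower, adjusted p = 1.56e-06) against PBS and -0.68 ± 0.11 (SE, 1.61-fold lower, adjusted p = 9.44e-05) against 2 mM, with BeadChip values of -0.85 ± 0.28 (adjusted p = 0.0328) and -0.75 ± 0.15 (adjusted p = 0.00122). The other probes of Ctsc, at -0.35 and -0.43, were called lower too. Ctse, an aspartic protease of endosomes, gave 10.79, 10.98, 10.82, 10.93 and 10.95 with PBS, 11.40, 11.17, 11.05 and 10.91 at 1 mM, 11.06, 10.94, 11.06, 10.97 and 10.98 at 2 mM, and 10.74, 10.64, 10.63 and 10.69 at 5 mM. The 5 mM arrays were all below PBS and 2 mM, and 1 mM replicate 1 was the highest. Ctse fell, with a difference of -0.22 ± 0.09 (SE, 1.16-fold lower, adjusted p = 0.0362) at 5 mM, but the BeadChip value was 0.18 ± 0.18 (adjusted p = 0.506), and a dimmer probe detected on 5 arrays rose by 1.01, so its direction depended on the probe and on the BeadChip term. The fall was not called, at -0.22 to -0.20, without PBS replicate 2, 4 or 5 or 5 mM replicate 2, 3 or 4.

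Ctsb, Ctsl and Ctsd are the widely expressed lysosomal proteases. Ctsb read 13.07, 12.88, 12.90, 13.09 and 12.74 with PBS, 12.83, 13.08, 13.08 and 13.25 at 1 mM, 13.05, 13.03, 13.14, 13.09 and 13.19 at 2 mM, and 13.33, 13.34, 13.35 and 13.29 at 5 mM. The 5 mM arrays were all above PBS and above 2 mM. Ctsb rose by 0.39 ± 0.09 (SE, 1.31-fold, adjusted p = 0.000762), and its BeadChip value was 0.02 ± 0.19 (adjusted p = 0.966). Scaled to the median of tested probes Ctsb was 0.14 and was not called (adjusted p = 0.247). Ctsl gave 5.64, 5.68, 5.65, 5.56 and 5.95 with PBS, 5.88, 5.81, 5.94 and 6.07 at 1 mM, 5.99, 6.13, 5.67, 5.99 and 6.18 at 2 mM, and 5.85, 6.39, 6.09 and 6.46 at 5 mM. Of its 5 mM arrays, replicate 1 fell within the PBS range and the rest lay above it. Ctsl rose by 0.51 ± 0.12 (SE, 1.42-fold, adjusted p = 0.00164), with a BeadChip value of 0.30 ± 0.31 (adjusted p = 0.528). Ctsd had levels of 6.28, 6.23, 6.26, 6.36 and 6.12 with PBS, 6.22, 6.13, 6.18 and 6.02 at 1 mM, 5.75, 6.04, 5.88, 5.51 and 6.40 at 2 mM, and 6.21, 6.10, 6.07 and 6.29 at 5 mM. Arrays at 5 mM were mixed with PBS, 2 mM replicates 1 to 4 were below it and replicate 5 was above it. Ctsd fell at 2 mM, with a difference of -0.33 ± 0.12 (SE, 1.26-fold lower, adjusted p = 0.0293), a call that was lost, at -0.33 to -0.23, without PBS replicate 1, 3 or 4 or 2 mM replicate 1, 3 or 4, and was not called at 5 mM (-0.08 ± 0.12 (adjusted p = 0.597)). At 2 mM the BeadChip value of Ctsd was -0.25 (adjusted p = 0.594) and not called.

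Ctsa, the carboxypeptidase that also protects lysosomal galactosidase, averaged 8.03 ± 0.22 with PBS (SD, n = 5), 8.32 ± 0.21 at 1 mM (n = 4), 8.33 ± 0.09 at 2 mM (n = 5) and 8.66 ± 0.15 at 5 mM (n = 4). It rose by 0.30 ± 0.11 (SE, 1.23-fold, adjusted p = 0.0322) at 2 mM and 0.63 ± 0.11 (SE, 1.55-fold, adjusted p = 9e-05) at 5 mM, with a BeadChip value of 0.59 ± 0.28 (adjusted p = 0.15) at 5 mM, and its other probes read 1.37 and 0.00. The 2 mM call for Ctsa was lost, at 0.21 to 0.30, without PBS replicate 3 or 4 or 2 mM replicate 1, 4 or 5. Ctsz, a carboxypeptidase, averaged 9.96 ± 0.18 with PBS (SD, n = 5), 10.27 ± 0.22 at 1 mM (n = 4), 10.13 ± 0.07 at 2 mM (n = 5) and 10.40 ± 0.17 at 5 mM (n = 4). It rose by 0.43 ± 0.11 (SE, 1.35-fold, adjusted p = 0.00232) at 5 mM, where the BeadChip value was 0.91 ± 0.24 (adjusted p = 0.00926), and the lowest 5 mM array lay under the highest PBS array. Ctsr, known from rodent placenta, was detected on 1 PBS array, 1 at 1 mM, 2 at 2 mM and 0 at 5 mM, and no fold is given.

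**Figure D3:**
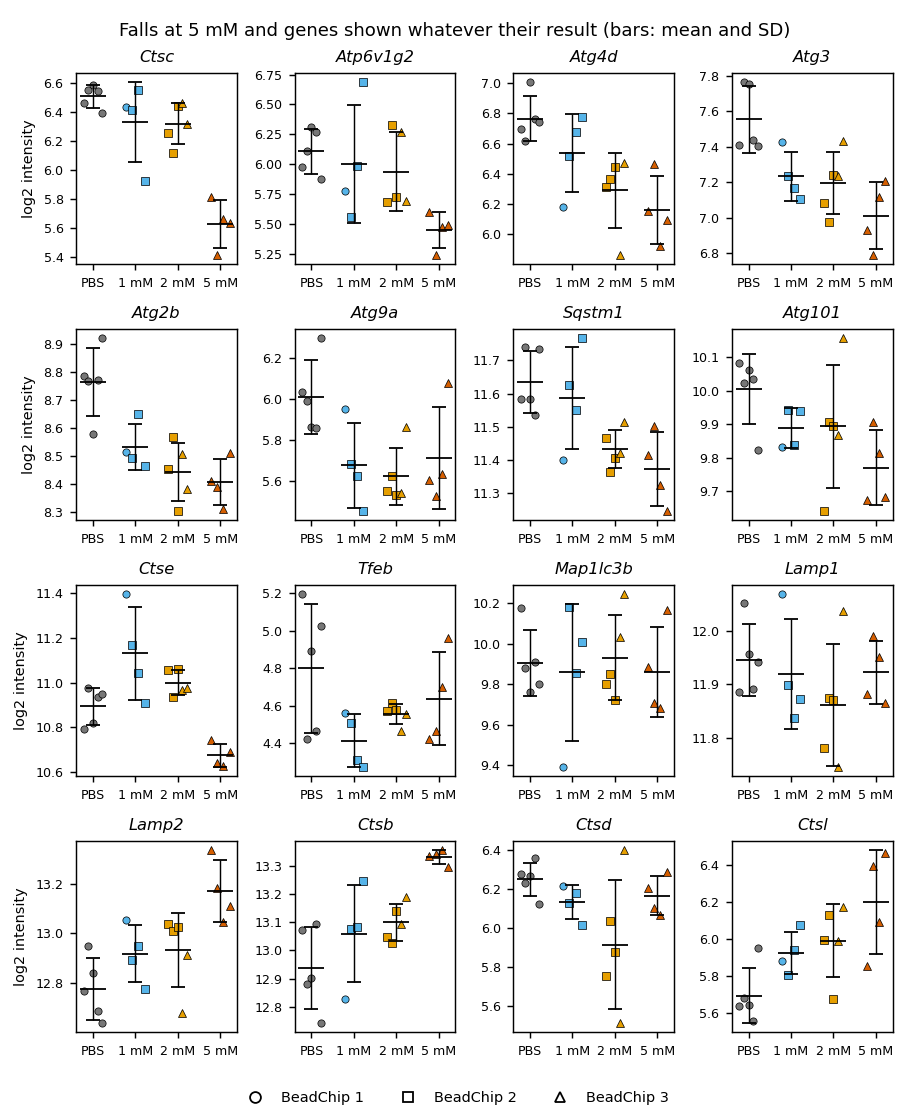
Log2 intensity on each array, by octanoate dose (x axis), for the 9 genes called lower at 5 mM and for Tfeb, Map1lc3b, Lamp1, Lamp2, Ctsb, Ctsd and Ctsl, with marker shapes for the BeadChip and bars for the mean and SD of each group. Ctsc drops at 5 mM by 0.87, while Map1lc3b and Lamp1 overlap in all groups.

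The step from 1 to 2 mM changed few of these genes. Gabarapl1 was higher at 2 than at 1 mM by 0.39 ± 0.07 (SE, 1.31-fold, adjusted p = 0.00381) and Atp6v0e by 0.28 ± 0.08 (SE, 1.21-fold, adjusted p = 0.0449), and 0 of the 53 were called lower, beside 4.26% of all genes higher and 1.69% lower (5.95% in either direction). Arrays at 2 mM lay wholly above 1 mM for 3 genes (Atg10, Atp6v0e and Gabarapl1) and wholly below for 1 (Atp6v1g1), beside 6.41% and 3.58%. At an unadjusted p under 0.05 2 of them were lower. With BeadChip as a term, which sets 1 mM and 2 mM arrays side by side on BeadChip 2, Gabarapl1 was 0.38 ± 0.09 (adjusted p = 0.046) and Atp6v0e 0.25 ± 0.10 (adjusted p = 0.215), so 1 gene was called higher and 0 lower, beside 2.07% and 0.368% of all genes. Atp6v0e lost its call in this step in 19 of 29 alternatives, among them every omission of 1 array except PBS replicates 1 and 5, 1 mM replicate 4 and 2 mM replicate 4, with differences of 0.24 to 0.29 where an omission ended it.

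The step from 2 to 5 mM is the one that BeadChip 3 covers directly, with 2 arrays at 2 mM and 4 at 5 mM. Here 19 of the 53 genes were higher and 2 lower (Ctsc and Ctse), where 18.9% and 14.6% of all genes were (33.5% in either direction), and the median was 0.21 beside 0.02 over all genes. With BeadChip as a term 17 were higher and 2 lower, beside 14.3% and 10.9%, and 18 of the 21 were called in both fits. Arrays at 5 mM lay wholly above 2 mM for 20 genes and wholly below for 3, beside 17.3% and 13.6%. By role the 19 comprised all 6 V0 genes, 4 V1 genes, 3 cathepsins (Ctsf, Ctsh and Ctsa), Gabarapl1 and Map1lc3a, both WIPI genes, Atg9b and Atg12. Ctsf rose in this step by 1.02 ± 0.13 (SE, 2.02-fold, adjusted p = 4.69e-06), Gabarapl1 by 0.68 ± 0.07 (SE, 1.6-fold, adjusted p = 6.8e-07) and Ctsh by 0.63 ± 0.09 (SE, 1.54-fold, adjusted p = 1.6e-05). The call for Map1lc3a in this step (0.43 ± 0.15) was lost, at 0.32 to 0.46, without 2 mM replicate 3, 4 or 5 or 5 mM replicate 1, 2 or 3. That for Ctsa (0.33 ± 0.11) was lost, at 0.28 to 0.32, without 2 mM replicate 2 or 3 or 5 mM replicate 1, 2 or 4. Wipi2 (0.29 ± 0.10) lost its call, at 0.23 to 0.29, without 2 mM replicate 4 or 5 or 5 mM replicate 2, 3 or 4, and Atp6v1h (0.24 ± 0.07), at 0.21, without 2 mM replicate 2 or 5 mM replicate 1 or 3. Arrays scaled to the median of all probes, which moved the median of all genes by 0.16 in this step, gave 26 higher and 1 lower. The share of all genes called with that scaling is not given here, so the count does not set these genes apart.

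**Figure D4:**
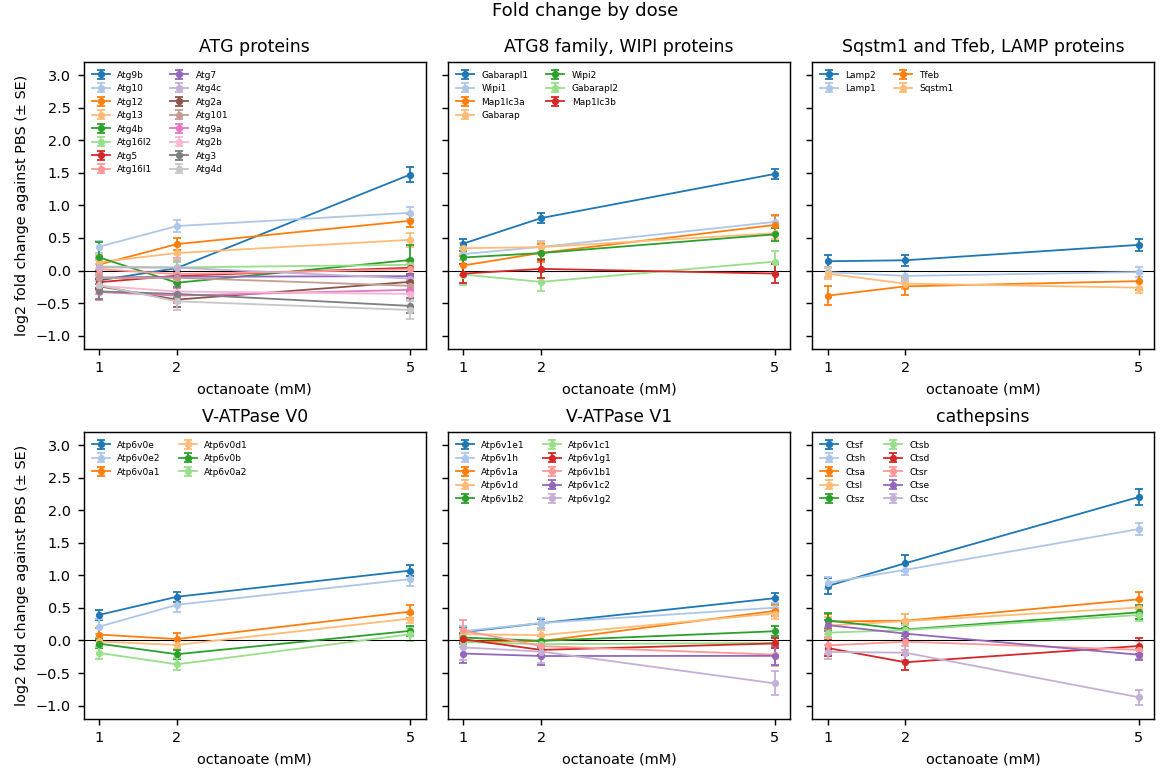
Log2 fold change against PBS (y axis, bars for SE) at 1, 2 and 5 mM octanoate (x axis) for all 53 genes, in 6 panels by role. The cathepsin panel spans the widest range at 5 mM, from -0.87 (Ctsc) to 2.21 (Ctsf), and V0 genes turn upward between 2 and 5 mM.

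Adding BeadChip as a term removed calls more often than it added them. Among all genes the calls at 5 mM against PBS went from 31.9% higher and 26.7% lower to 16.1% and 12%. Of the 33 genes called at 5 mM against PBS 19 were called in both fits, 16 higher and 3 lower. The 14 called without the term only were Map1lc3a, Atp6v1g2, Atg3, Atg2b, Atg9a, Atg101, Ctse, Ctsb, Ctsl, Atp6v0d1, Atp6v1d, Atp6v1a, Atg13 and Ctsa. Map1lc3b and Atp6v1b1 were called lower with the term only. At 2 mM 7 of 22 calls were shared by both fits, and at 1 mM 2 of 6.

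**Figure D5:**
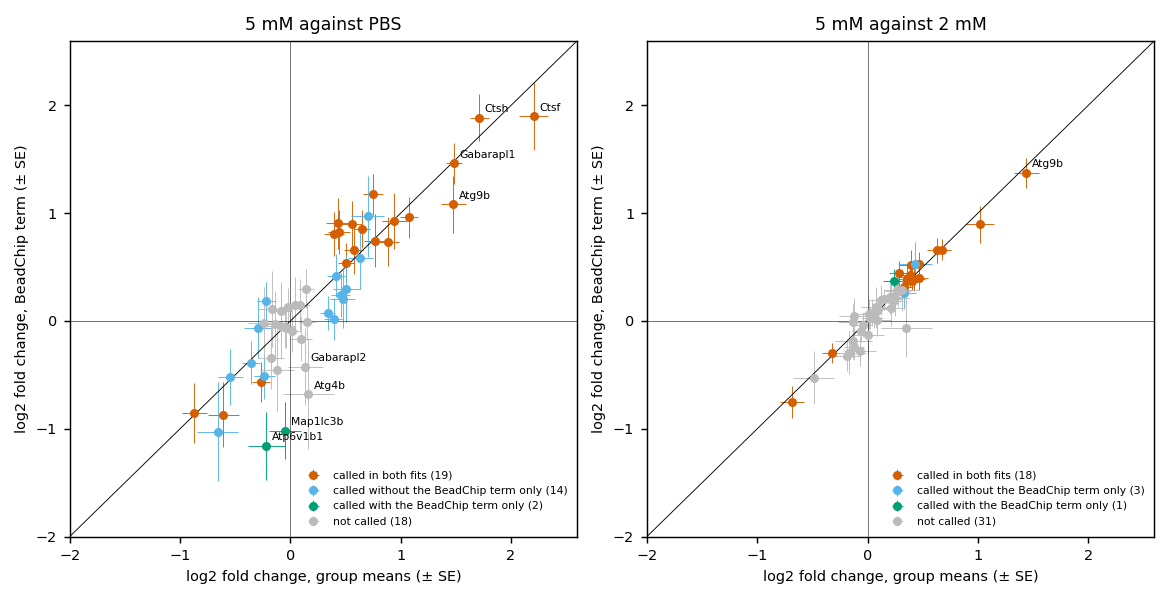
Log2 fold change of the 53 genes with BeadChip as a term of the model (y axis) against that from group means alone (x axis), with SE bars and a line of equality, for 5 mM against PBS and 5 mM against 2 mM. In the step from 2 to 5 mM the points keep close to the line (18 called in both fits), and against PBS Map1lc3b and Atp6v1b1 lie well under it.

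Genes that work with these families were read from 7 lists by role. Of 111 measured genes 65 were higher and 9 lower at 5 mM, with a median of 0.32. Among all genes 31.9% were higher and 26.7% lower, with a median of 0.01, and these shares stand beside each list below. The BeadChip term left 29 of the 111 higher and 3 lower, where 16.1% and 12% of all genes were. Of 28 lysosomal hydrolases other than cathepsins 22 rose and 0 fell (median 0.50), among them the nuclease Dnase2a (1.83 ± 0.11 (adjusted p = 1.79e-11)), the acid lipase Lipa (1.04 ± 0.07 (adjusted p = 4.07e-11)), the galactosidase Glb1 (1.02 ± 0.07 (adjusted p = 3.78e-10)) and the acid phosphatase Acp2 (0.88 ± 0.08 (adjusted p = 6.11e-09)). Of the hydrolases 11 rose and 0 fell with BeadChip as a term. Of 17 lysosomal membrane proteins and transporters 12 rose and 0 fell (median 0.35), such as Ostm1 by 1.20, the protease Sppl2a by 0.98, the sialic acid transporter Slc17a5 by 0.81 and Laptm4a by 0.65. Of 8 genes for enzyme delivery and cystatins 4 rose and 1 fell (median 0.14), with the sorting receptor Sort1 at 2.60 ± 0.09 (adjusted p = 6.02e-15), the mannose phosphate receptor Igf2r at 1.13, Gnptg at 0.45 and the inhibitor Cstb at -0.28. In the BeadChip fit 4 of the membrane proteins and transporters and 2 of the delivery genes and cystatins rose, and 0 fell.

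Upstream of the ATG proteins, 6 of 15 genes of the ULK1 and PI3-kinase complexes rose and 0 fell (median 0.19), with the membrane protein gene Vmp1 at 0.84 ± 0.08 (adjusted p = 2.34e-08), Uvrag at 0.46, the kinase Ulk1 at 0.43 and Ambra1 at 0.31. Beside Sqstm1, 5 of 9 selective autophagy receptors rose and 2 fell (median 0.29), where Calcoco1 changed by 0.97 ± 0.12 (adjusted p = 1.05e-06), Nbr1 by 0.71, and the mitochondrial receptors Phb2 and Bnip3l by -0.56 and -0.38. Of 13 genes for fusion of autophagosome and lysosome 8 rose and 0 fell (median 0.43), with the SNARE genes Vamp8 at 1.01 ± 0.09 (adjusted p = 1.19e-08), Vamp7 at 0.56 and Snap29 at 0.52, and the tether Vps41 at 0.47. In the BeadChip fit 4 of the ULK1 and PI3-kinase genes, 1 receptor and 3 fusion genes rose and 0 fell, where 16.1% and 12% of all genes did. Genes of mTORC1 and of nutrient sensing on the lysosome were divided, with 8 of 21 higher and 6 lower (median 0.07), and 4 higher and 3 lower in the BeadChip fit. Rragd rose by 2.23 ± 0.09 (adjusted p = 2.82e-14), Deptor by 1.61 ± 0.10 (adjusted p = 2.99e-11) and Sesn1 by 0.65. Akt1s1 fell, with a difference of -0.87 ± 0.07 (adjusted p = 4.68e-09). The activity of mTORC1 was not measured.

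Genes with several detected probes numbered 23 of the 53. At 5 mM all probes gave the same call for 11 of them, a called probe stood beside an uncalled one for 10, and Ctse and Atg2b had probes called in opposite directions.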

How the data were processed

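For each of 18 biotin-labelled arrays, a mean bead intensity per probe (45281 probes), not normalized between arrays, was deposited, per the file headers. A detection p-value beside each intensity was deposited too, per the file headers, and moves in steps of 0.00107. A table of log2 values processed by the authors was deposited as well; the submitters' processing notes name lumi, its version and steps are not given in the sources used here, and it served as an alternative. On bright probes its values correlated with log2 intensity per array at 0.979 to 0.998 (slope 0.89 to 0.96), so it is not centred per gene and runs in the same direction, while its transform at low values stays unknown. Its array medians were 7.352 to 7.357.

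The neqc step of limma (version 3.58.1, R version 4.3.3) normalized the intensities (offset 16, negative controls inferred from detection p-values, quantile normalization, log2), which would remove a shift common to most genes and understates folds of dim probes. The tested probes, which needed a detection p under 0.05 on 4 arrays or more, numbered 20536 (45.4%), of which 17298 had 1 symbol. Of all probes 34885 had 1 symbol, 18 several and 10378 none here; symbols came from the platform annotation, updated by Entrez ID for 34807. Groups came from the labels. A model of group means was fitted to all 18 arrays by lmFit and eBayes (14 residual degrees of freedom, median residual SD 0.175, median SE 0.114 at 5 mM against PBS), and two-sided p-values were adjusted over all tested probes with the Benjamini-Hochberg procedure. The code was tested on simulated data. No pair of arrays was identical. Same-numbered replicates of different groups deviated from their group means with correlations of -0.04 to 0.05 over 25 pairs. No pairing by number was seen in these values, which cannot show that none existed, and the main fit used none.

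A value for every array is given for the 10 largest rises and up to 10 largest falls among genes called at 5 mM and for Tfeb, Sqstm1, Map1lc3b, Gabarapl1, Lamp1, Lamp2, Ctsb, Ctsd and Ctsl, and Gabarap was added after its values were seen. From each wider list up to 4 genes with the smallest adjusted p at 5 mM were named. The members, lists and alternatives were chosen with earlier results of these data known. Alternatives changed the normalization, offset, filter, BeadChip and replicate terms, the probe rule and the arrays included, and 1 of them, scaling to the median of all probes, was chosen after seeing the data.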

Additional observations from a re-analysis of the deposited data

Results flagged for a closer look

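Over 104 groups of arrays of 26 named genes, 4 held an array whose gap to its nearest neighbour exceeded Dixon's critical value, and chance gives about 1 in 20. PBS replicate 5 was the lowest of its group for Atg12, at 9.34 against 9.56 for the next array, and for Atg101, at 9.82 against 10.02. For Atg4d 2 mM replicate 4 was lowest, at 5.86 against 6.31. For Atg9a 2 mM replicate 5 was highest, at 5.86 against 5.62.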

How the results depend on the processing

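Each result was recomputed under up to 29 alternatives. Shares of all genes called are given only for the main fit and the BeadChip fit, so counts under the other alternatives have none beside them. Over 26 of the genes with a value for every array, all but Gabarap, the alternatives removed 6, 33, 50, 19 and 10 calls and added 32, 11, 3, 15 and 27 for 1, 2 and 5 mM against PBS, 2 against 1 mM and 5 against 2 mM. Reversals were Atg2b (0.035 at 2 mM and 0.043 at 5 mM) and Ctse (0.40 at 5 mM and 0.20 for 5 against 2 mM) with the mean of a gene's probes, and Map1lc3b at 2 mM (-0.74) and Ctse at 5 mM (0.18) with BeadChip as a fixed term. The cause of these changes was not tested. For 1 mM against PBS, members called higher numbered 6 and came to 2 with scaling to the median of all probes and 10 with an offset of 50. Members called lower numbered 0 and came to 2 with the median of tested probes, the authors' table, an offset of 50 or a stricter filter, 3 with the median of all probes and 1 with the mean of probes. Wider list genes (24 higher, 4 lower) came to 4 higher with the median of all probes, 9 higher with the BeadChip term, 7 lower with the authors' table and 2 lower with the replicate block. For 2 mM against PBS, members (13 higher, 9 lower) came to 6 higher with the median of all probes and 6 higher and 4 lower with the BeadChip term, and wider genes (40 higher, 10 lower) came to 21 higher and to 12 higher and 4 lower under the same settings. For 5 mM against PBS, members called lower (9) came to 3 with the median of all probes and 5 with the BeadChip term, and wider genes (65 higher, 9 lower) came to 29 higher and 3 lower with the BeadChip term and 14 lower with the median of tested probes. For 2 mM against 1 mM, members called higher (2) came to 1 with either median scaling or the BeadChip term, 4 with the authors' table, a stricter filter or the mean of probes and 5 with an offset of 50. Wider genes in that step (3 higher, 2 lower) came to 1 higher with the median of all probes, the BeadChip term or the replicate block, 8 with the authors' table and 7 with an offset of 50, a stricter filter or the mean of probes, and to 0 lower with the median of all probes and 1 lower with the BeadChip term. For 5 mM against 2 mM, members called lower (2) came to 4 with the median of tested probes and 1 with the median of all probes or the mean of probes. Wider genes called lower there (3) came to 5 with the median of tested probes or the mean of probes and 0 with the median of all probes or the BeadChip term. Leaving out 1 array in turn gave 6 to 9 members higher and 0 to 2 lower at 1 mM, 11 to 15 and 7 to 9 at 2 mM, 24 to 24 and 6 to 9 at 5 mM, 1 to 4 and 0 to 0 for 2 against 1 mM, and 16 to 21 and 2 to 3 for 5 against 2 mM. For wider genes it gave 16 to 25 higher and 2 to 4 lower at 1 mM, 35 to 41 and 7 to 10 at 2 mM, 61 to 66 and 9 to 11 at 5 mM, 1 to 4 and 1 to 2 for 2 against 1 mM, and 36 to 45 and 1 to 3 for 5 against 2 mM. Without 1 mM replicates 1 and 4 and 2 mM replicate 5 together, which earlier results of these data had shown apart from their groups, members called higher came to 5 at 1 mM and 1 for 2 against 1 mM, and wider genes to 10 higher and 1 lower at 1 mM and to 1 higher and 0 lower for 2 against 1 mM. Calls gained by leaving out 1 array, other than those of Tfeb, which was not detected at 1 mM, were, at 1 mM, Wipi1 (0.30 to 0.31, without 1 mM replicate 3 or 4), Ctsa (0.39, 1 mM replicate 3), Ctsz (0.36 to 0.38, PBS replicate 5 or 1 mM replicate 3), Ctse (0.31, 1 mM replicate 4), Atg3 (-0.38 to -0.32, PBS replicate 5, 1 mM replicate 1 or 2 mM replicate 5), Atg2b (-0.28 to -0.24, replicate 3 of PBS, 1 mM or 2 mM) and Atg9a (-0.42 to -0.33, 1 mM replicate 1 or 5 mM replicate 4). At 2 mM they were Ctsl (0.30 to 0.38, PBS replicate 5, 2 mM replicate 3 or 5 mM replicate 1, 2 or 4), Atg13 (0.27 to 0.34, PBS replicate 5, 1 mM replicate 1 or 3 or 2 mM replicate 3) and Atp6v1g1 (-0.21, PBS replicate 2), and at 5 mM Atg2a (-0.32, 5 mM replicate 2). For 2 against 1 mM they were Ctsf (0.47) and Atp6v0e2 (0.42) without 1 mM replicate 4, Atg12 (0.41) without 1 mM replicate 3 and Atg10 (0.32 to 0.36) without PBS replicate 5 or 2 mM replicate 4. For 5 against 2 mM they were Ctsb (0.23 to 0.25, PBS replicate 5, 1 mM replicate 1 or 4 or 2 mM replicate 5), Ctsd (0.37, 2 mM replicate 5), Ctsz (0.26, 1 mM replicate 1), Gabarap (0.28, 5 mM replicate 3), Gabarapl2 (0.44, 5 mM replicate 2), Atg2a (0.39, 5 mM replicate 4) and Atp6v1g2 (-0.55 to -0.49, 1 mM replicate 2 or 4 or 2 mM replicate 1 or 5). The replicate block moved no other count of members by over 1.5 times, with 8 higher at 1 mM and 24 higher and 6 lower at 5 mM. BeadChip 1 is tied to the others by 1 array, so sizes against PBS cannot be separated from BeadChip beyond that array's precision, and probes near background (Tfeb, Ctsr, Atg4c, Atp6v1b1 and Atp6v1c2) limit their genes' values.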

Other observations

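Several genes beside the 53 followed dose from 1 mM. The sorting receptor gene Sort1 rose by 0.88 ± 0.09 (adjusted p = 2.01e-06) at 1 mM, 1.68 ± 0.09 (adjusted p = 1.87e-11) at 2 mM and 2.60 at 5 mM, with BeadChip values of 0.93, 1.80 and 2.78. The GTPase gene Rragd rose by 0.81 ± 0.09 (adjusted p = 2.92e-06), 1.10 and 2.23, with BeadChip values of 0.84, 1.22 and 2.47. The lysosomal nuclease gene Dnase2a rose by 0.99 ± 0.11 (adjusted p = 3.89e-06), 1.37 and 1.83, with BeadChip values of 1.09, 1.36 and 1.62. Akt1s1, a subunit of mTORC1, fell at each dose, with differences of -0.55 ± 0.07 (adjusted p = 3.76e-05), -0.63 and -0.87. Ostm1, a lysosomal membrane gene, was not called at 1 mM (0.09) and rose at 2 mM (0.36) and 5 mM (1.20).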
